A study of Homo sapiens with 6 samples.

Results

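The genes described here encode the machinery that lengthens, shortens and reads the poly(A) tail of mRNA: the CPEB family, the TOB and BTG adaptors, the CCR4-NOT and PAN2-PAN3 deadenylases, poly(A) polymerases, the cleavage and polyadenylation factors, poly(A)-binding proteins, and the repression and decay factors that act after deadenylation. A list of 47 such genes was chosen by function, and 44 of them had at least 1 probe set annotated to a single gene symbol. BTG2, WDR33 and PABPC4 did not and were not analysed here. They are 44 of 19775 genes measured in this way. Where a gene had several probe sets, the brightest over the 6 arrays stood for it.

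SW480 is an established human colorectal adenocarcinoma line. RNA came from 3 samples transfected with CPEB3 and labelled as CPEB3-overexpressing, and from 3 samples labelled as negative control (NC), all titled biological replicates, and was measured on the Affymetrix HG-U133 Plus 2.0 microarray. The vector, the transfection method, whether the cells were a pool or a clone, and the culture and day of each sample are not given in the labels, and the p-values cover only the spread among these samples, which may be technical. Values are log2 of the deposited normalized intensity, a negative difference means a lower level in the arrays labelled CPEB3, and a gene was called where limma's Benjamini-Hochberg adjusted p over all genes was under 0.05.

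A poly(A) tail protects an mRNA and promotes its translation by binding poly(A)-binding proteins. CPEB proteins bind U-rich elements in the untranslated region after the stop codon and can direct either tail lengthening, through a non-canonical poly(A) polymerase such as TENT2, or tail shortening, through TOB proteins that bridge to CCR4-NOT. When the tail has been removed, the cap is cleaved by DCP2 and the body of the mRNA is degraded by XRN1. The arrays measure the mRNA levels of these factors, and neither tail lengths nor translation were measured.

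Arrays of one group correlated with r from 0.997 to 0.998 over all probe sets and arrays of different groups with r from 0.991 to 0.992; probe sets are not independent of each other. Of 12 colorectal epithelial markers, 10 were above the array median, among them EPCAM, KRT8 and KRT18, and LGALS4 and CDH17 were below it. Of 6 leukocyte markers, CD3E, CD3D and ITGAM were above it and PTPRC, CD14 and LYZ below, and of 9 fibroblast and endothelial markers 4 were above and 5 below. The mean level of the epithelial markers was 6.89 to 6.95 in the arrays labelled CPEB3 and 6.71 to 6.76 in those labelled NC. The mean of the leukocyte markers was 3.50 to 3.69 against 3.45 to 3.48, and that of the fibroblast and endothelial markers 3.52 to 3.58 against 3.42 to 3.50. Of these lists, KRT18 and KRT20, ITGAM, and DCN rose, none fell, and no marker was at 0. The 18 spike-in probe sets for hybridization read lower in the CPEB3 group (9.48 to 9.64 against 9.73 to 9.80, a mean difference of -0.18), so the counts of members called, over all and by role, are also given after centring the arrays on them. The difference between the control probe sets at the ends of ACTB mRNA, a sign of RNA quality, was 3.24 to 3.54 against 3.21 to 3.27. The part of these measures in the results was not tested.

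Of the 44 members, 16 fell and 1 rose in the arrays labelled CPEB3. The falls covered 36.4% of the members, where 12.5% of all genes fell, and the rise 2.27%, where 10.9% of all genes rose. Among genes at or above the array median, where 43 of the 44 members lay, 17.7% fell and 14.5% rose. The median difference of the members was -0.11, beside 0.02 over all genes. After spike-in centring, which moved the median of all genes to 0.20, the members' median turned to 0.07 and the calls to 7 lower and 9 higher. Of all 19775 genes, 1038 were then lower and 7766 higher. The share of members called lower was still above that of all genes, and the share called higher below it. As deposited, the mean level of the 44 members was 7.09 to 7.11 in the arrays labelled CPEB3 and 7.26 to 7.29 in those labelled NC. No array of one group lay within the range of the other. The difference of these means (-0.17) was about that of the spike-in probe sets (-0.18), and the mean difference over all genes was -0.01. Spike-in centring shifts each array by its spike-in mean, and after it the member means of the groups overlap and no longer lie apart.

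**Figure D1:**
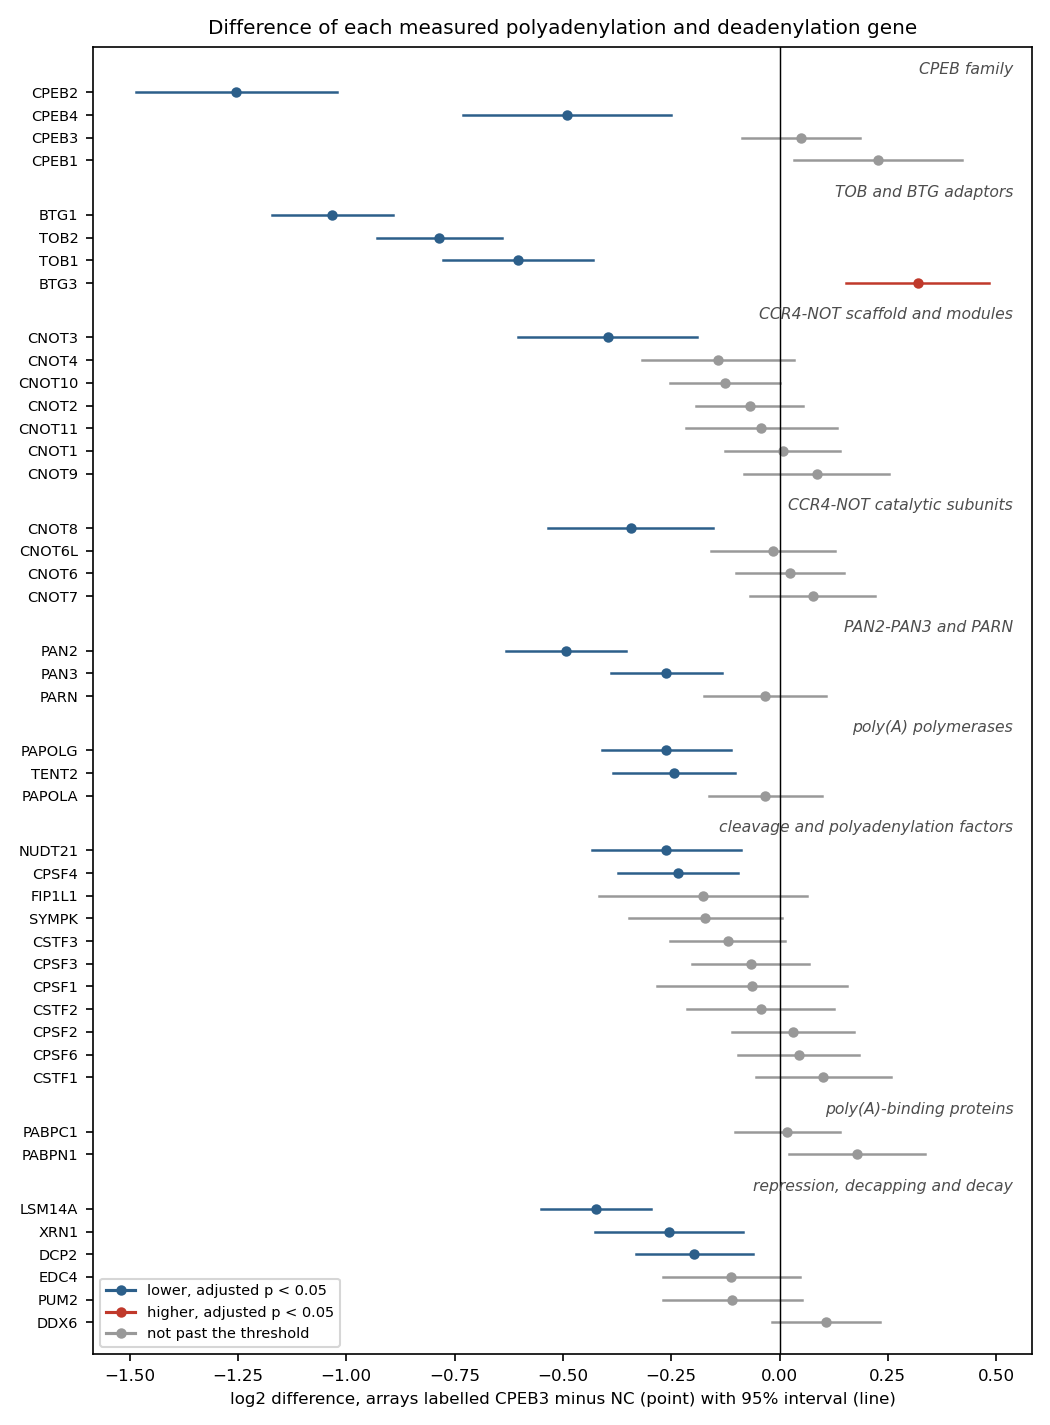
Log2 difference (horizontal axis, arrays labelled CPEB3 minus NC, 3 arrays each) with its 95% interval for each of the 44 measured members, grouped by role; blue marks a fall and red a rise past the threshold. The differences run from -1.25 for CPEB2 to 0.32 for BTG3, and the 5 largest falls are those of CPEB2, BTG1, TOB2, TOB1 and PAN2.

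The falls of CPEB2, CPEB4, TOB1, TOB2, BTG1, CNOT3, CNOT8, PAN2 and LSM14A were 0.3 or more on the log2 scale, and those of PAN3, TENT2, PAPOLG, CPSF4, NUDT21, DCP2 and XRN1 were smaller. The median over the 16 falls was -0.37. Of the 27 members that did not pass, differences lay between -0.18 and 0.23.

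For the promoters of the members that fell, the 250 bases before each RefSeq start (GRCh38.p14) were searched on both strands for 5 motifs: GAAANNGAA, the core of the interferon-stimulated response element; TGACGTCA, the cAMP response element; TGANTCA, the AP-1 site; GCGNGGGCG, the EGR1 site; and CACGTG, the E-box. Of the 16 genes 15 had an entry, with 20 promoters. The sequences that held a motif are those of BTG1 (chr12:92145847-92146096, minus strand, response element core) and CPEB2 (chr4:15002231-15002480, plus strand, EGR1 site). They are printed in lower case, read toward the gene, with the matched letters in capitals, and both matches are to the reverse complement of the motif.
BTG1: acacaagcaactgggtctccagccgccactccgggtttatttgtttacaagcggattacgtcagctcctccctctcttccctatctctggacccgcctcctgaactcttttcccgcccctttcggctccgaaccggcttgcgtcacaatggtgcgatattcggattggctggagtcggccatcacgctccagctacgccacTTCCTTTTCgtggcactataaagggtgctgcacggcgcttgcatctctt
CPEB2: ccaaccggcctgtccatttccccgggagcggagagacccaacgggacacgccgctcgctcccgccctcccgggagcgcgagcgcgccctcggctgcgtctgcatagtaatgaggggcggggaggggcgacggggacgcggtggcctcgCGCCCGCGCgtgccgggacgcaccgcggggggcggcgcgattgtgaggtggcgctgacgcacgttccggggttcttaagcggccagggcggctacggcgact

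The response element core was in 5.0% of the 20 promoters, against 6.88% of all 35116 promoters, and the EGR1 motif in 5.0%, against 8.41%. No match to the cAMP response element (1.65% of all promoters), the AP-1 site (6.57%) or the E-box (6.34%) was found in these windows. A match is a description of the letters only.

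The CPEB family divided by member. CPEB2 was 3.89, 3.97 and 4.32 in the arrays labelled CPEB3 and 5.28, 5.31 and 5.34 in those labelled NC. Every NC array was above every array labelled CPEB3, and the third of the latter was the nearest to the NC arrays. The difference was -1.25 (SE 0.10, 2.38-fold lower; limma, Benjamini-Hochberg adjusted p = 4.33e-05), the largest of the 44 members, and -1.07 after spike-in centring. This fall rested on 1 of 3 probe sets. The others, both below the array median, differed by -0.07 and 0.13 and did not pass, and the mean of all probe sets gave -0.40.

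CPEB4, a paralogue close to CPEB2 and CPEB3, was 5.20, 4.97 and 5.30 against 5.70, 5.46 and 5.79. The groups did not overlap, although the highest array labelled CPEB3 (5.30) was near the lowest NC array (5.46). It fell by 0.49 (SE 0.11, 1.41-fold; limma, Benjamini-Hochberg adjusted p = 0.00954). Unlike CPEB2, it had other probe sets above the array median, and both fell further. One was 4.52, 4.62 and 4.86 against 5.46, 5.44 and 5.53 (difference -0.81), and the other 4.41, 4.54 and 4.82 against 5.54, 5.48 and 5.53 (difference -0.93). In these, as in CPEB2, array 3 was the highest of those labelled CPEB3. The last probe set, which was dim, differed by 0.03.

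CPEB3, the transfected gene, was 5.40, 5.35 and 5.37 in the arrays labelled CPEB3 at its brightest probe set and 5.38, 5.25 and 5.34 in those labelled NC, ranges that overlap. The difference was 0.05 (95% interval -0.09 to 0.19; limma, Benjamini-Hochberg adjusted p = 0.616). At another, dim probe set the values were 2.39, 2.08 and 2.47 against 3.99, 3.59 and 3.68, a difference of -1.44, and the remaining dim pair differed by -0.35 and -0.25. All 3 were called lower among all probe sets. On the deposited scale, 0 probe sets of the transfected gene were called higher, and only the dim ones read against the labels. These arrays therefore show no rise of CPEB3, and a fall of its level is not established. The directions given here rest on the labels. Whether the probe sets lie inside the transfected sequence was not analysed here.

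CPEB1, the founding member that directs polyadenylation in oocytes, was dim, at 2.23, 2.40 and 2.51 against 2.19, 2.23 and 2.03. The groups overlapped, and the difference of 0.23 did not pass (95% interval 0.03 to 0.42; limma, Benjamini-Hochberg adjusted p = 0.0889). Its second probe set differed by -0.10. Over the family, 2 of 4 members fell (50%) and 0 rose, with a median of -0.22. Of all genes 12.5% fell and 10.9% rose, and of those at or above the array median 17.7% and 14.5%. With the mean of each gene's probe sets, CPEB2, CPEB3 and CPEB4 fell and the median was -0.45. Spike-in centring left CPEB2 and CPEB4 lower, at -1.07 and -0.31, and added CPEB1 and CPEB3 as higher, at 0.41 and 0.23. With that centring 1038 of all 19775 genes were lower and 7766 higher.

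**Figure D2:**
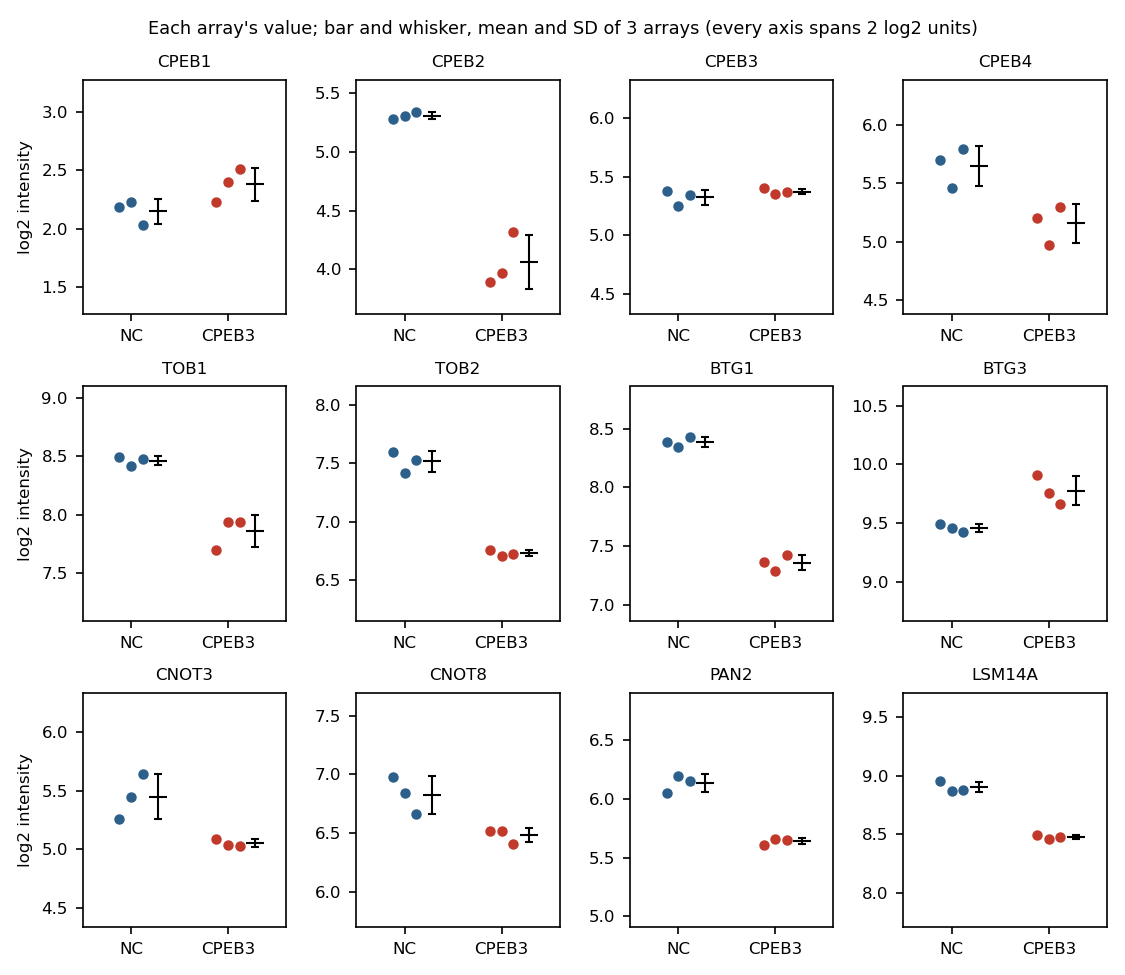
Log2 intensity of 12 members in each of the 6 arrays (points, NC blue and CPEB3 red), with the mean and SD of 3 arrays beside them; every vertical axis spans 2 log2 units, so distances can be compared between panels. The groups lie apart in CPEB2, CPEB4, TOB1, TOB2, BTG1, BTG3, CNOT3, CNOT8, PAN2 and LSM14A and overlap in CPEB1 and CPEB3.

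TOB and BTG proteins share a domain that binds the nucleases CNOT7 and CNOT8, and TOB proteins also bind poly(A)-binding protein and CPEB3. All 4 measured adaptors passed the threshold, 3 of them lower (75%) and 1 higher (25%), with a median of -0.69. Of all genes 12.5% fell and 10.9% rose, and of those at or above the array median 17.7% and 14.5%. The same 4 calls were made after spike-in centring (median -0.51), where 1038 of all 19775 genes were lower and 7766 higher. With the mean of each gene's probe sets the 3 falls were called, the rise was not, and the median was -0.45.

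BTG1, an antiproliferative adaptor, was 7.36, 7.29 and 7.42 in the arrays labelled CPEB3 and 8.39, 8.34 and 8.43 in those labelled NC. Both groups were tight, and the gap between them was larger than the range within either. It fell by 1.03 (SE 0.06, 2.04-fold; limma, Benjamini-Hochberg adjusted p = 6.19e-06). A second bright probe set gave 6.93, 6.78 and 6.89 against 7.80, 7.76 and 8.07, a difference of -1.01, and a dim one gave -0.09. Both bright probe sets are of the kinds (_s_ or _x_) that can match more than 1 transcript, and with these left out only the dim one remains, which did not pass.

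TOB2 was 6.76, 6.71 and 6.73 against 7.60, 7.42 and 7.53, a fall of 0.79 (SE 0.06, 1.72-fold; limma, Benjamini-Hochberg adjusted p = 4.35e-05). A dimmer probe set agreed in sign at 4.57, 4.01 and 4.29 against 4.71, 4.68 and 4.73, with a difference of -0.42 that passed over all probe sets (limma, Benjamini-Hochberg adjusted p = 0.0479), and the last, below the array median, differed by -0.04. Its paralogue TOB1 was 7.70, 7.94 and 7.94 against 8.49, 8.42 and 8.48, a fall of 0.60 (SE 0.08, 1.52-fold; limma, Benjamini-Hochberg adjusted p = 5.74e-04). The second TOB1 probe set was 5.80, 5.53 and 5.68 against 6.02, 6.11 and 6.02, a difference of -0.38. No array of one group lay within the range of the other at either TOB1 probe set.

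BTG3 was the member that rose. It was 9.91, 9.76 and 9.66 in the arrays labelled CPEB3 and 9.49, 9.46 and 9.42 in those labelled NC, so the groups were apart but the highest NC array was near the lowest array labelled CPEB3. The rise was 0.32 (SE 0.07, 1.25-fold; limma, Benjamini-Hochberg adjusted p = 0.0126). Its other bright probe set rose by 0.33 (9.14, 8.85 and 8.87 against 8.66, 8.59 and 8.62). The dim pair differed by -0.08 and -0.22, so that the sign turned with the most variable probe set and with the _s_ and _x_ probe sets left out, where BTG3 did not pass. The mean of its probe sets (0.09) did not pass either.

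Of the 11 subunits of CCR4-NOT, the main cytoplasmic deadenylase, 2 fell (18.2%) and 0 rose, with a median of -0.04. Of all genes 12.5% fell, and of those at or above the array median 17.7%. After spike-in centring 0 fell and 2 rose (CNOT9 and CNOT7), where 1038 of all 19775 genes were lower and 7766 higher. The scaffold CNOT1 was 8.11, 8.09 and 8.12 against 8.02, 8.14 and 8.13, so the difference was 0.01 (95% interval -0.13 to 0.14). CNOT2 (-0.07), CNOT4 (-0.14), CNOT9 (0.09), CNOT10 (-0.13) and CNOT11 (-0.04) did not pass either, although the groups of CNOT2 and CNOT10 did not overlap. Of the 6 CNOT9 probe sets, 1 that was not the brightest rose by 0.275 (limma, Benjamini-Hochberg adjusted p = 0.0311 over all probe sets). The others were not called, and 2 of the 6 differences were negative.

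CNOT3, which joins CNOT2 in the module that contacts repressors, was 5.09, 5.04 and 5.03 against 5.26, 5.45 and 5.64. The NC arrays were spread over more than the arrays labelled CPEB3, and the fall was 0.40 (SE 0.09, 1.32-fold; limma, Benjamini-Hochberg adjusted p = 0.013). A second probe set went the other way, at 4.63, 4.78 and 4.92 against 4.30, 4.50 and 4.53, a rise of 0.33 (limma, Benjamini-Hochberg adjusted p = 0.0414 over all probe sets). CNOT3 was the 1 member with probe sets called in both directions, its mean over probe sets did not pass, and no direction can be given for its mRNA as a whole.

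Among the catalytic subunits, CNOT8 was 6.52, 6.52 and 6.41 against 6.98, 6.84 and 6.66, a fall of 0.34 (SE 0.08, 1.27-fold; limma, Benjamini-Hochberg adjusted p = 0.0172). Its other probe sets differed by -0.28, which passed, and by -0.25, which did not, and the groups were apart at all 3. Without array 3 of those labelled CPEB3 the fall was 0.31 and no longer passed. CNOT7, the paralogue that occupies the same place in the complex, was 9.93, 10.08 and 10.00 against 9.87, 9.98 and 9.93, a difference of 0.08 (95% interval -0.07 to 0.22). The other nuclease pair, CNOT6 (0.02) and CNOT6L (-0.02), did not pass at their brightest probe sets, and a dimmer CNOT6L probe set rose by 0.29. Whether paralogues differed in their change was not tested.

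PAN2-PAN3, which trims long tails before CCR4-NOT acts, fell in both subunits. The nuclease PAN2 was 5.61, 5.66 and 5.65 against 6.05, 6.20 and 6.15, a fall of 0.49 (SE 0.06, 1.41-fold; limma, Benjamini-Hochberg adjusted p = 5.20e-04), and -0.31 after spike-in centring, where it still passed. PAN3, the partner that binds poly(A)-binding protein, was 7.64, 7.66 and 7.62 against 7.91, 7.94 and 7.85, and its fall of 0.26 (limma, Benjamini-Hochberg adjusted p = 0.00945) became -0.08 and did not pass with that centring. In both genes the arrays labelled CPEB3 lay within a narrow band below all NC arrays. Each has 1 probe set, so no second reading exists. PARN, a cap-binding deadenylase, differed by -0.03 (95% interval -0.17 to 0.11).

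Of the 3 poly(A) polymerases, 2 fell (66.7%, beside 12.5% of all genes and 17.7% of those at or above the array median) and 0 rose. TENT2, the cytoplasmic polymerase that extends tails on CPEB-bound mRNAs, was 6.41, 6.48 and 6.36 against 6.70, 6.59 and 6.70, a fall of 0.24 (SE 0.06; limma, Benjamini-Hochberg adjusted p = 0.0202). Nuclear PAPOLG was 6.23, 6.30 and 6.35 against 6.46, 6.60 and 6.60, a fall of 0.26 (SE 0.07; limma, Benjamini-Hochberg adjusted p = 0.0191). Neither passed with the mean of its probe sets or with spike-in centring, and the mean for PAPOLG was at 0. The call of TENT2 was lost without array 1 or 3 of either group (-0.24 to -0.22), and that of PAPOLG without array 1 or 2 labelled CPEB3 or array 2 or 3 labelled NC (-0.26 to -0.23). The main nuclear enzyme, PAPOLA, differed by -0.03 at its brightest probe set (9.58, 9.56 and 9.48 against 9.58, 9.57 and 9.57). Further PAPOLA probe sets were called lower, at -0.31 and -0.23, and its mean did not pass.

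The nuclear cleavage and polyadenylation factors had 2 of 11 members lower (18.2%) and 0 higher. This was near the 17.7% lower among genes at or above the array median, beside 12.5% of all genes. The median of -0.07 became 0.11 with spike-in centring, where 0 fell and CPSF6 and CSTF1 rose. Among all 19775 genes 1038 were lower and 7766 higher with that centring. CPSF4, a zinc finger subunit that helps to bind the polyadenylation signal, fell by 0.23 (7.70, 7.74 and 7.82 against 7.92, 8.03 and 8.01; limma, Benjamini-Hochberg adjusted p = 0.0232). NUDT21, a subunit of cleavage factor I that influences which polyadenylation site is used, fell by 0.26 (8.57, 8.39 and 8.45 against 8.86, 8.68 and 8.66; limma, Benjamini-Hochberg adjusted p = 0.0366). Its groups did not overlap, but 1 array labelled CPEB3 came close to the NC arrays, its other probe sets (-0.13 and -0.10) were not called, and the mean of all 3 did not pass. CPSF4 lost its call without array 1 or 2 labelled CPEB3 or array 2 or 3 labelled NC (-0.23 to -0.21), and NUDT21 without array 2 or 3 labelled CPEB3 or array 1 or 2 labelled NC (-0.29 to -0.20).

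The other 9 of these factors did not pass: CPSF1 (-0.06), CPSF2 (0.03), the endonuclease CPSF3 (-0.07), CPSF6 (0.04), CSTF1 (0.10), CSTF2 (-0.04), CSTF3 (-0.12), the scaffold SYMPK (-0.17) and FIP1L1 (-0.18). CSTF3, which bridges subunits of the cleavage stimulation factor, differed between its probe sets. The brightest was 7.65, 7.64 and 7.61 against 7.68, 7.81 and 7.77. A second was 6.60, 6.61 and 6.70 against 6.20, 6.17 and 6.24, a rise of 0.43 (limma, Benjamini-Hochberg adjusted p = 0.00191 over all probe sets), and the remaining one differed by 0.35 without passing. The mean of the 3 gave a rise of 0.22 that passed. FIP1L1 differed between its probe sets as well. A dim one fell by 0.449 (limma, Benjamini-Hochberg adjusted p = 0.0226 over all probe sets), and another differed by 0.213 without passing.

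Poly(A)-binding proteins gave no call. Cytoplasmic PABPC1 was 12.46, 12.43 and 12.44 against 12.41, 12.43 and 12.44, a difference of 0.02 (95% interval -0.10 to 0.14), although its probe set can match several transcripts and the gene has close copies. Nuclear PABPN1 was 5.41, 5.60 and 5.57 against 5.41, 5.31 and 5.33, a difference of 0.18 that did not pass (limma, Benjamini-Hochberg adjusted p = 0.0981) and that reached 0.36 and passed with spike-in centring.

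Of the 6 factors that repress and degrade deadenylated mRNA, 3 fell (50%) and 0 rose, with a median of -0.15. Of all genes 12.5% fell, and of those at or above the array median 17.7%. With spike-in centring LSM14A alone stayed lower and DDX6 was called higher. LSM14A, a repressor found in P-bodies, was 8.49, 8.46 and 8.48 against 8.95, 8.87 and 8.88, a fall of 0.42 (SE 0.06, 1.34-fold; limma, Benjamini-Hochberg adjusted p = 7.36e-04). Its 3 arrays labelled CPEB3 agreed within a few hundredths, but its other probe sets differed by -0.06 and -0.05 and were not called.

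XRN1, the exonuclease that degrades decapped mRNA from its capped end, was 5.64, 5.86 and 5.89 against 6.10, 6.02 and 6.03, a fall of 0.26 (SE 0.08; limma, Benjamini-Hochberg adjusted p = 0.0388). A dimmer probe set fell by more (3.66, 3.55 and 3.73 against 4.34, 4.44 and 4.25, a difference of -0.70), as did one below the array median (-0.41), and the last differed by -0.09. DCP2, the decapping enzyme, was 7.28, 7.35 and 7.26 against 7.47, 7.45 and 7.56, the smallest fall of those called (-0.20; limma, Benjamini-Hochberg adjusted p = 0.0423). The call of DCP2 was lost when any 1 of the 6 arrays was left out (-0.22 to -0.16), and that of XRN1 without any but array 3 labelled CPEB3 (-0.29 to -0.18). The helicase DDX6 (0.11), PUM2 (-0.11), which recruits CCR4-NOT to its target sites, and the decapping scaffold EDC4 (-0.11) did not pass.

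Agreement between probe sets differed among the 17 called members. For CPEB4, TOB1, TOB2, BTG1, BTG3, CNOT8, DCP2 and XRN1 another probe set of the gene was called in the same direction. For DCP2 that probe set lay below the array median. Adjusted over all probe sets, the brightest ones of DCP2, XRN1 and NUDT21 did not pass (limma, Benjamini-Hochberg adjusted p = 0.0797, 0.0638 and 0.0602). For CPEB2, TENT2, PAPOLG, NUDT21 and LSM14A there were other probe sets, none of them called, and PAN2, PAN3 and CPSF4 had 1 probe set each. Of all 128 probe sets of the members, 28 were lower (21.9%) and 6 higher (4.69%), where 7.86% and 6.59% of all probe sets were, and 39 lay below the array median. The groups did not overlap in 21 of the 44 members (47.7%), where this held for 39.1% of all genes. In 19 of the 44 they were apart with the arrays labelled CPEB3 lower, where this held for 3785 of all 19775 genes.

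**Figure D3:**
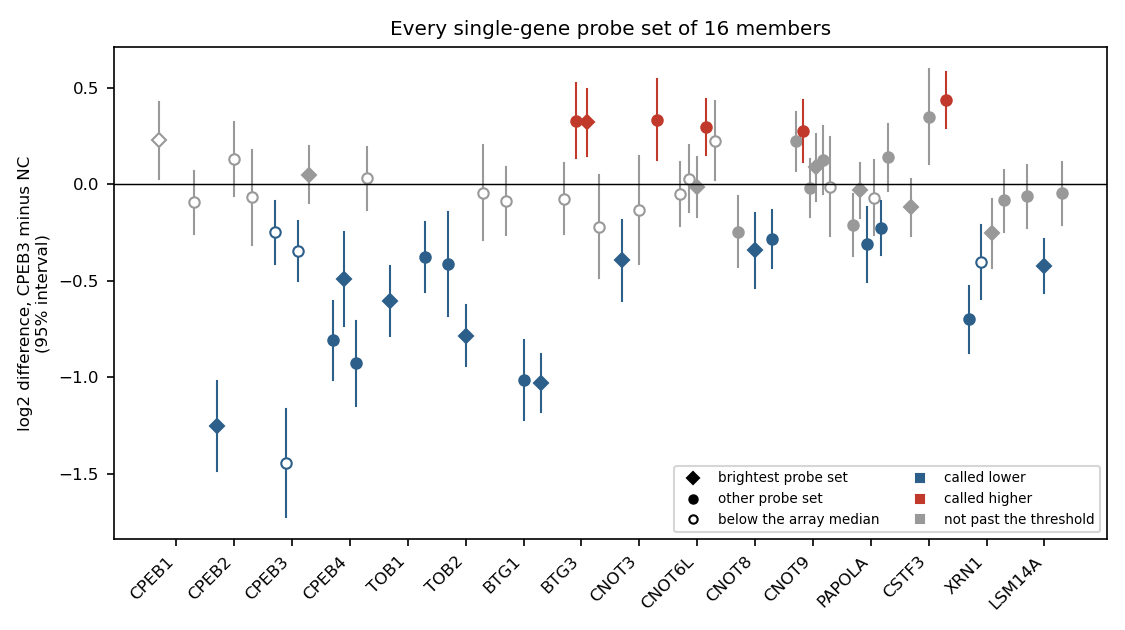
Log2 difference (vertical axis, arrays labelled CPEB3 minus NC) with its 95% interval at every single-gene probe set of 16 members; diamonds mark the brightest probe set, open symbols probe sets below the array median, blue a fall and red a rise past the threshold over all probe sets. The bright probe sets of CPEB4, TOB1, TOB2 and BTG1 lie together below 0, whereas those of CNOT3 and CSTF3 lie on both sides of it.

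CPEB2, CPEB4, TOB1, TOB2, BTG1, PAN2 and LSM14A fell and BTG3 rose with both the deposited values and spike-in centring. CNOT3, CNOT8, PAN3, TENT2, PAPOLG, CPSF4, NUDT21, DCP2 and XRN1 lost their calls with it. CPEB1, CPEB3, CNOT7, CNOT9, CPSF6, CSTF1, PABPN1 and DDX6 were then called higher, as were 7766 of all 19775 genes.

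**Figure D4:**
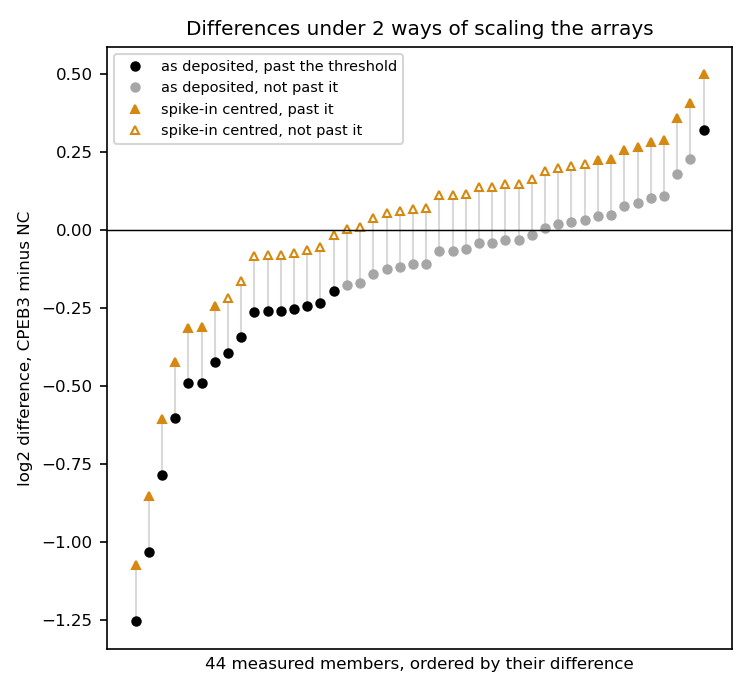
Log2 difference (vertical axis) of each of the 44 measured members in order of size, as deposited (circles, black where past the threshold) and after centring each array on its hybridization spike-ins (triangles, filled where past it). Centring moves every member up by 0.18, and 7 remain called lower.

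A further 58 genes of tail and decay biology were listed by role, and 57 were measured. Of these 16 fell (28.1%, beside 12.5% of all genes) and 7 rose (12.3%, beside 10.9%), with a median of -0.11. Only 6 of the 57 lay below the array median, and of genes at or above it 17.7% fell and 14.5% rose. With spike-in centring 9 of the 57 fell and 19 rose, where 1038 of all 19775 genes were lower and 7766 higher. Enzymes that extend tails and partners of poly(A)-binding protein had 6 of 12 members lower (50%, beside 12.5% of all genes) and 0 higher. TENT5B (-0.80) and TENT5A (-0.78), both non-canonical poly(A) polymerases, fell most, followed by PAIP2 (-0.55), an inhibitor of poly(A)-binding protein, and TENT4A (-0.46). At TENT5A the values were 7.64, 7.73 and 7.81 against 8.44, 8.52 and 8.57, with a wide gap between the groups, and a second of its 3 probe sets fell by 0.91.

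Deadenylase-related genes outside the list had 1 of 7 lower (14.3%, beside 12.5% of all genes) and 2 higher (28.6%, beside 10.9%). NOCT, a circadian member of the CCR4-related family, was 5.43, 5.30 and 5.44 against 6.85, 6.83 and 6.72, a fall of 1.41 (SE 0.07, 2.66-fold; limma, Benjamini-Hochberg adjusted p = 1.22e-06), and its other probe set fell by 0.61. ANGEL1, of the same family, rose by 0.38 at 1 of 3 probe sets, and PDE12 by 0.24 at 1 of 4, a call that was lost without array 2 or 3 of either group (0.20 to 0.24). In decapping and decay, 5 of 16 fell (31.2%, beside 12.5% of all genes) and 1 rose. DCP1A, the activator of DCP2, was 7.01, 7.06 and 7.12 against 7.83, 7.98 and 7.95, a fall of 0.86 (SE 0.07; limma, Benjamini-Hochberg adjusted p = 2.57e-05) that its second probe set shared (-0.69). LSM6 (-0.58), PATL1 (-0.46) and LSM2 (-0.27), which act in activating decapping, also fell. The gene that rose was LSM4 (0.25). LSM1 (0.09), LSM3 (0.05), LSM5 (-0.11) and LSM7 (-0.19) did not pass, so these LSM genes had no common direction. Leaving out array 1 or 2 labelled CPEB3, or array 2 labelled NC, ended the call of LSM2 (-0.25 to -0.24).

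Recruiters and regulators had 4 of 14 lower (28.6%, beside 12.5% of all genes) and 2 higher (14.3%, beside 10.9%). MEX3C (-0.66) fell at 1 of its 5 probe sets, AGO4 (-0.40), of the Argonaute family, fell at 1 of 4, and EIF4E2 (0.30), a cap-binding repressor, rose at 1 of 4. NANOS1, which brings CCR4-NOT to repressed mRNAs, rose by 0.85 from a level below the array median, and its other probe set (0.14) was not called. The other AGO4 probe sets were at 0.01, -0.11 and -0.08, and those of EIF4E2 between 0.13 and 0.15. Other nuclear cleavage factors had 0 of 8 lower and 2 higher (25%, beside 10.9% of all genes). The risers were CSTF2T (0.33, its other probe set at 0.03) and the dim PAPOLB (0.20). The call of PAPOLB was lost without any array but array 3 labelled NC (0.18 to 0.22).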

How the data were processed

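The authors deposited linear intensities, 1 for each probe set on each array, which they made with RMA, per the submitters' processing notes; the version of the tool and a genome build are not given in the sources that were used. RMA brings the arrays close to a common distribution, which can hide a shift in the total amount of RNA, and it shrinks differences of dim probe sets. All intensities were above 0 (array medians 14.8 to 15.2), and log2 was taken before any test. Precision is limited by the number of arrays. Detection calls were not part of the data; "dim" means below the median probe set of the arrays (3.89 to 3.93).

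Groups and replicate numbers come from the titles. Of 54675 probe sets, 62 are controls, 41091 carry 1 symbol in the platform annotation, 1801 several and 11721 none here. Entrez identifiers found 19735 of the 19775 genes in RefSeq (GRCh38.p14), and 0 symbols were updated. The test was limma (3.58.1, under R 4.3.3; lmFit, eBayes, group as the only term, two-sided; 4 residual and 5.06 prior degrees of freedom), adjusted over all genes by Benjamini-Hochberg; single probe sets were tested in the same way over all 54613 non-control probe sets. The procedure was tested on simulated data.

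The members, the further list, the tests and the alternatives were chosen with earlier results of these data known. Every member could be named. Arrays are given for the CPEB, TOB and BTG genes, for other called members with a difference of 0.3 or more, and for some further members; those and the other probe sets described were chosen after their values were seen. From the further list, up to 4 called genes per role with the largest change are named. LSM1, LSM3, LSM4, LSM5 and LSM7 are named in addition, beside LSM2 and LSM6. Promoters came from RefSeq tables for 39 of the 44 measured members. A planned comparison of protein sequences was not run. Alternatives were other choices of probe set, no dim genes, other scalings, variance models, a threshold of 0.01, the replicate number as a block, and leaving out each array.

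Figures were drawn with matplotlib 3.10.9.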

Additional observations from a re-analysis of the deposited data

How the results depend on the processing

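CPEB2, CPEB4, TOB1, TOB2, PAN2 and LSM14A kept their fall and their call under every alternative run for them, 18 each or 17 for TOB2 and PAN2, which have no probe set left when those of the _s_ and _x_ kinds are dropped. The count of 16 members lower became 7 with spike-in centring, 8 without _s_ and _x_ probe sets (37 members left) and 8 at a threshold of 0.01. It was 11 or 12 when any 1 array was left out, and 11 with quantile normalization once more. The mean of probe sets gave 13, the most variable probe set 15, and a call by any probe set of a gene 18. The 1 member higher became 9 with spike-in centring, 2 without _s_ and _x_ probe sets, 2 without dim genes, 0 at a threshold of 0.01 and 5 where any probe set of a gene could make the call; leaving out 1 array gave 1 to 3, the latter without array 1 of those labelled CPEB3. The members' median of -0.11 turned to 0.07 with spike-in centring. Over all genes, 2470 lower became 1038 with spike-in centring and 1520 at 0.01, and 2146 higher became 7766 and 1083. Of the 57 further genes, 16 lower became 9 with spike-in centring and 10 at 0.01, and 7 higher became 19, 3 at 0.01, 11 with any probe set and 4 to 7 when 1 array was left out (4 without array 2 or 3 of those labelled CPEB3). Correlations of the deviations from the group means were 0.00, -0.02 and 0.12 for same-numbered arrays. For differently numbered arrays they ran from -0.11 to 0.12. With 3 arrays per group, these values cannot decide whether same-numbered arrays share a culture or day. With the replicate block 14 members were lower and 1 higher, the calls of DCP2 and XRN1 being lost, and of the further genes 13 were lower and 4 higher.

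Signs that turned where either setting made a call were those of CPEB3 when its probe sets were averaged (-0.50) or the most variable one was taken (-1.44), CSTF3 (0.22) and PAPOLG (0.00) with the mean, BTG3 with the most variable probe set (-0.22), and, without _s_ and _x_ probe sets, BTG3 (-0.22), CNOT3 (0.33), CNOT6L (0.29), PAPOLG (0.002) and MEX3C (0.24). The cause was not tested. A further 45 sign changes were of members past the threshold in neither setting.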
